A study of Homo sapiens with 4 samples.

Results

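The regions described here are H3K27ac peaks of the colon cancer line COLO-205 that lay away from promoters and did not overlap any peak of DU-145, a prostate cancer line, or of OVCAR-3 or SKOV-3, both from ovarian cancer. A peak was counted when none of its bases fell in a peak of the other 3 lists and when its summit was more than 1 kb from every GENCODE transcript start of a protein-coding gene. Chromosomes 13, X and Y and the stretch from 41 to 43 Mb of chromosome 6 were left out. These peaks are called COLO-205-only distal peaks below. They numbered 48003, of 59547 distal and 71829 total COLO-205 peaks on the chromosomes kept, 85576 peaks in the COLO-205 list and 251138 peaks in the 4 lists together.

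The study profiled the histone mark by ChIP-seq in these 4 established human cancer cell lines, with 1 library per line. COLO-205 and OVCAR-3 were grown in RPMI-type media, DU-145 in Eagle minimal essential medium and SKOV-3 in a McCoy's 5a medium, all with serum. No treatment or engineered change is named for any line. The same number of cells, grown to near confluence, was collected for each sample, and the same antibody (ab4729) was used, but the amount of chromatin behind each library is not known to be equal. With 1 library per line there is no replicate error, differences between lines cannot be told apart from differences between libraries, and the intervals given below are exact 95% binomial (Clopper-Pearson) intervals that cover counting error alone.

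Acetylation of histone H3 at lysine 27 marks active promoters and enhancers, and its distal peaks differ more between cell types than its promoter peaks do. In intestinal epithelium, enhancers are known to be bound by HNF4, CDX, GATA and Kruppel-like factors, and in most colorectal cancers WNT signalling is switched on and acts through TCF/LEF factors. AP-1 (FOS and JUN dimers) binds enhancers in many epithelial and cancer cells. MYB, a transcription factor of intestinal crypts and blood progenitors, is known as an amplified oncogene in this line.

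The label of the line was checked against promoter peaks of marker genes. COLO-205 had a peak within 1 kb of a transcript start of 6 of 13 colon epithelial markers, namely VIL1, EPCAM, GPA33, LGALS4, CDX2 and HNF4A, whereas DU-145 had 2, OVCAR-3 had 3 and SKOV-3 had 0. COLO-205 also had such a peak at 4 of 6 ovarian, 3 of 5 prostate, 1 of 6 mesenchymal and 1 of 6 blood markers, and its colon markers CDH17, KRT20, CEACAM5, CEACAM6, GUCY2C, MUC13 and CDX1 had none.

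The windows below show what such a peak looks like at FOXA2 and HNF4A, intestinal transcription factors that are discussed further on. Each is 300 bp of the GRCh37 plus strand (hg19, the build of the peak lists) centred on the summit of the strongest COLO-205-only distal peak that is assigned to the gene, holds one of the lineage motifs searched and touches no exon of a protein-coding gene. The capitals mark motif letters on either strand.
FOXA2 window, chr20:22557573-22557872: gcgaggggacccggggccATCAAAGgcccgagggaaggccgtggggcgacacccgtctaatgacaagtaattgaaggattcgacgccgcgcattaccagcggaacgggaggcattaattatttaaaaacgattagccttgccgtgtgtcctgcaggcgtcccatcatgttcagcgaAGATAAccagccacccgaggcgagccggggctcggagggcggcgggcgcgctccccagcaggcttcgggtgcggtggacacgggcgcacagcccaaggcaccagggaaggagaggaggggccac
HNF4A window, chr20:43032288-43032587: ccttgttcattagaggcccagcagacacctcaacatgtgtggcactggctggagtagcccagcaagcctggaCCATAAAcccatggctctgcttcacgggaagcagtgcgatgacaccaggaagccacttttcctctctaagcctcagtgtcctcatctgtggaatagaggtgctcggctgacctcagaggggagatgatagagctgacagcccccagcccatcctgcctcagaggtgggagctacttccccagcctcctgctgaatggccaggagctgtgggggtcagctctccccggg
The capitals are a CDX match (TTTATNG) near HNF4A, and both a TCF/LEF match (CTTTGAT) and a match to the GATA letters AGATAA near FOXA2. The windows differ in composition. The FOXA2 window was 64.0% GC with 28 CpG dinucleotides, and the HNF4A window was 59.0% GC with 4. A lineage motif was found at 12.2% of all COLO-205-only distal peaks (11.9 to 12.5). Among those assigned to each gene it was found at 13 of 72 for MYB, 7 of 50 for FOXA2, 4 of 34 for SOX9, 2 of 18 for KLF4 and 2 of 12 for HNF4A, counts too small to set a gene apart from that share.

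COLO-205-only peaks made up 80.6% of the distal COLO-205 peaks (80.3 to 80.9), compared with 23.5% of its promoter peaks (22.8 to 24.3). The same share was 72.5% of DU-145, 68.3% of OVCAR-3 and 32.8% of SKOV-3 distal peaks, and the SKOV-3 list is the shortest at 14001 peaks. These shares are a description of what the rule chose. The number of ChIP tags, computed from the lowest background in each list, was 29800000 for COLO-205, against 36000000 for the DU-145, 34200000 for the OVCAR-3 and 22400000 for the SKOV-3 library. Scaled down to the tags of the SKOV-3 library, with the same fold over background, 43108 of the COLO-205-only distal peaks (89.8%) would reach the lowest −log10 p of its list. The scaling keeps the fold of peaks chosen by these lists fixed. It therefore does not cover a difference in enrichment between the libraries, which was not tested.

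Most of the COLO-205-only distal peaks were weak and narrow. Their median −log10 q, the peak caller's significance on a log scale, was 7.59 with quartiles of 6.07 and 9.73, where the list begins at 3.01. The median fold enrichment over the local background was 4.66, the median pileup at the summit was 22 tags and the median width was 266 bp. COLO-205 distal peaks that overlapped another list had a median −log10 q of 8.24, a fold enrichment of 4.6, a pileup of 24 tags and a width of 286 bp. The median −log10 q was 7.84 in DU-145-only, 9.69 in OVCAR-3-only and 7.82 in SKOV-3-only distal peaks. Their median widths were 319, 280 and 230 bp. Of the COLO-205-only distal peaks, 9.18% were below 5 on this scale, 67.5% lay from 5 to 10, 19.4% from 10 to 20, and 1901 peaks (3.96%) reached 20. A value of 20 was reached by 2.54% of DU-145-only, 17.0% of OVCAR-3-only and 3.48% of SKOV-3-only distal peaks. The peaks were chosen by these lists, by the presence of a peak in COLO-205 and its absence elsewhere, so these values are given as a description.

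At the edges of the rule the values changed little. The 187 peaks with a summit no more than 100 bp past the 1-kb limit had a median −log10 q of 7.36, and the 222 peaks found in this line alone with a summit in the 100 bp before it had 6.81. The 416 COLO-205-only distal peaks no more than 100 bp from a peak of another list had a median of 7.16, and the 583 distal peaks that shared 1 to 100 bp with one had 6.74. The nearest peak of another list was 10658 bp away in the median. It lay within 350 bp for 3.57% of the COLO-205-only distal peaks, within 10 kb for 48.5% and beyond 100 kb for 12.1%.

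The peaks lay at a median of 27397 bp from the nearest protein-coding transcript start, compared with 17951 bp for shared COLO-205 distal peaks, 16370 bp for DU-145-only, 22333 bp for OVCAR-3-only and 27919 bp for SKOV-3-only distal peaks. Introns of protein-coding genes held 45.5% of their summits (45 to 45.9), whereas they held 64.1% (63.6 to 64.6) in DU-145-only, 51.1% (50.6 to 51.7) in OVCAR-3-only and 46.7% (44.6 to 48.8) in SKOV-3-only distal peaks. The SKOV-3-only values were the closest to those of COLO-205 on both measures. A further 33.4% were intergenic, 12.1% lay in other annotated genes and 9.05% in exons of protein-coding genes.

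The peaks were unevenly spread over the chromosomes. Over the 21 chromosomes kept there were 17.4 COLO-205-only distal peaks per Mb, from 1.61 on chromosome 18 to 62.4 on chromosome 20. On chromosome 20 the DU-145-only distal peaks numbered 6.58 per Mb and the OVCAR-3-only distal peaks 25.5 per Mb, and on chromosome 18 they numbered 37.1 and 8.77. To compare the signal of the libraries at a place where all have a peak, the pileup of COLO-205 was divided by the geometric mean of DU-145 and OVCAR-3 at 10262 peaks common to these 3 lists and centred on the median of all. This relative pileup was 0.15 on the log2 scale on chromosome 20 (391 common peaks) and −0.34 on chromosome 18 (121 common peaks). DNA copy number was not measured in these files, and its part in the number of peaks was not tested.

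**Figure D1:**
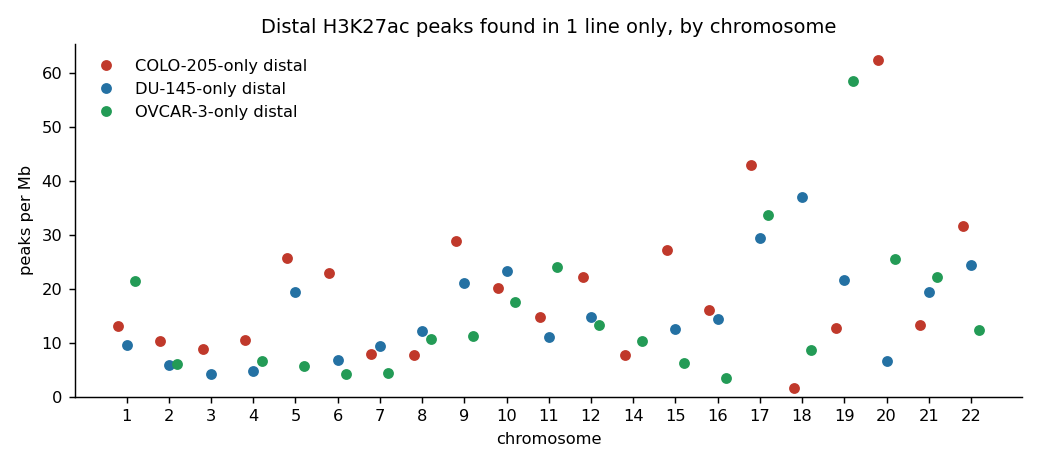
Distal H3K27ac peaks found in 1 line only, per Mb (y axis), on each chromosome kept (x axis), with a point for COLO-205, DU-145 and OVCAR-3. COLO-205 is highest on chromosome 20 (62.4 per Mb) and lowest on chromosome 18 (1.61 per Mb); DU-145 on chromosome 14 and OVCAR-3 on chromosome 3 are left out, where their lists are dense.

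The strongest COLO-205-only distal peaks were concentrated on chromosome 6. This chromosome held 8.06% of all of them but 1448 of the 1901 whose −log10 q reached 20 (76.2%) and 196 of the 208 that reached 50. The 10 strongest were all there. The highest lay 6563 bp from a start of TCF21, a transcription factor of mesenchymal progenitors, with a −log10 q of 217, a fold enrichment of 23.2 and a pileup of 222 tags over a background of 8.60. A further 2 peaks near TCF21 had a −log10 q of 161 and 107. Near MYB, peaks 80914 and 84369 bp from its nearest start had a −log10 q of 156 and 107. A peak at an exon of IL20RA, a subunit of the receptor for interleukin 20, had 143. An intergenic peak near EYA4, a developmental phosphatase and transcription cofactor, had 127, and 3 peaks in introns of ZFAND3, a zinc finger gene, had 113, 103 and 96.6. Their distance from the other lines' peaks varied. The nearest DU-145 and OVCAR-3 peaks were 55531 and 55582 bp from the strongest TCF21 peak, and 85515 and 84936 bp from the strongest MYB peak. An OVCAR-3 peak lay 24861 bp from the IL20RA peak, and DU-145 peaks lay 5483, 14204 and 6329 bp from the 3 ZFAND3 peaks.

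In windows of 1 Mb, the median was 8 COLO-205-only distal peaks over the 2338 windows with any, and the highest was 385. More than 100 were found in 88 windows, which held 15092 of the peaks (31.4%). Of these windows, 11 were on chromosome 6, from 38 to 41 Mb, 52 to 54 Mb, 64 to 65 Mb and 133 to 138 Mb, and held 2805 of the peaks at a median −log10 q of 18.2. DU-145 had from 0 to 11 and OVCAR-3 from 0 to 4 line-only distal peaks in each of them. At the 47 common peaks inside these 11 windows, the COLO-205 pileup was raised as well, by a median of 1.24 on the log2 scale (quartiles 0.92 and 1.65). The exception was the window at 133 to 134 Mb, with −0.15 from a single common peak. The other 77 dense windows held 12287 of the peaks at a median −log10 q of 7.49, and their relative pileup was 0.08 at 1170 common peaks, close to −0.02 at 8458 common peaks in the windows with 100 or fewer. Signal was high in the chromosome 6 windows also where the other lines had peaks, and copy number was not tested.

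**Figure D2:**
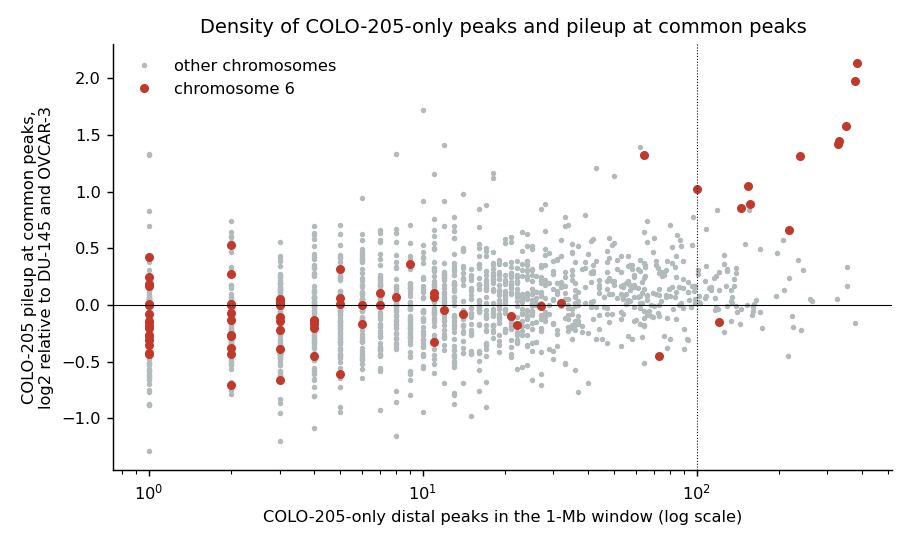
Each point is a 1-Mb window with at least 1 COLO-205-only distal peak and 1 peak common to COLO-205, DU-145 and OVCAR-3. The x axis is the number of COLO-205-only distal peaks (log scale, dotted line at 100) and the y axis the median log2 COLO-205 pileup at common peaks relative to the other 2 lines; windows of chromosome 6 with over 100 peaks lie above 0 except 1 at −0.15, while dense windows of other chromosomes lie on both sides of 0.

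Away from chromosome 6 the dense windows were mostly near chromosome ends. Of the 77, 56 (72.7%) were less than 10 Mb from an end, compared with 15.7% of all windows with a COLO-205-only distal peak. Over all COLO-205-only distal peaks, 37.8% had their summit within 10 Mb of an end, and the share was 30.4% for shared COLO-205 distal peaks, 19.8% for DU-145-only and 21.8% for OVCAR-3-only distal peaks. The largest runs of neighbours no more than 10 kb apart lay in both kinds of place. On chromosome 6 there were 248 peaks over 480.1 kb at SGK1, a kinase that regulates epithelial sodium transport, 235 over 484 kb around KCNK5, a potassium channel gene, 201 over 528 kb at ZFAND3 and BTBD9, 144 over 345 kb at ALDH8A1 and HBS1L, and 113 over 373 kb at PEX7, MAP7 and MAP3K5. Elsewhere there were 185 over 345 kb at GALNT9, a glycosyltransferase gene near the end of chromosome 12, 126 over 250.4 kb from SLC12A7 to TERT near the end of chromosome 5, and 119 at OLFM1 and 115 at VAV2 on chromosome 9. The median −log10 q was between 14.8 and 25.3 in the 5 runs on chromosome 6 and between 6.67 and 7.63 in these 4. In all there were 22091 runs, of which 14919 held a single peak and 554 held 10 or more, with 26.1% of the peaks.

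The 10 strongest peaks away from chromosome 6, a list made after the values were seen, had a −log10 q from 52.3 to 67.7. Those named here lay nearest to SLC25A25 (67.7), SULF2 (65.7), BRD1 (63.6), FZD10 (61.9), FAM90A12P (60.4), VAV2 (55.9), TCF20 (54.5), TH (52.6) and SPNS2 (52.3). FZD10 encodes a WNT receptor, and its peak was 76603 bp from the start and 738635 bp from the nearest DU-145 peak. SULF2 encodes an extracellular sulfatase that edits heparan sulfate, and its peak was 187220 bp from the start but 4541 bp from an OVCAR-3 peak. FAM90A12P belongs to a family of near-identical copies, where reads cannot be placed with certainty.

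The summit windows were rich in G and C. The median GC content of the 300-bp windows was 58.0% (quartiles 53.0 and 62.3), compared with 40.0% over all 8623005 windows of the same chromosomes. Shared COLO-205 distal peaks had 58.7%, DU-145-only distal peaks 52.0% and OVCAR-3-only distal peaks 53.0%. Windows of at least 55% GC made up 66.1% of the COLO-205-only distal peaks, 69.1% of the shared ones, 24.2% of DU-145-only, 35.7% of OVCAR-3-only and 6.82% of all genome windows. The mean number of CpG was 9.56 per window, compared with 10.6 in shared, 6.25 in DU-145-only and 6.53 in OVCAR-3-only distal peaks and 3.0 over the genome. High GC content was thus shared by both kinds of COLO-205 distal peak. It differed among the COLO-205-only distal peaks too. Those with a −log10 q below 5 had a median of 61.0%, those from 20 had 54.0%, those in the dense chromosome 6 windows had 51.3% and those in the other dense windows had 61.0%. With 1 library per line, the line and its library cannot be told apart as the source of these differences.

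**Figure D3:**
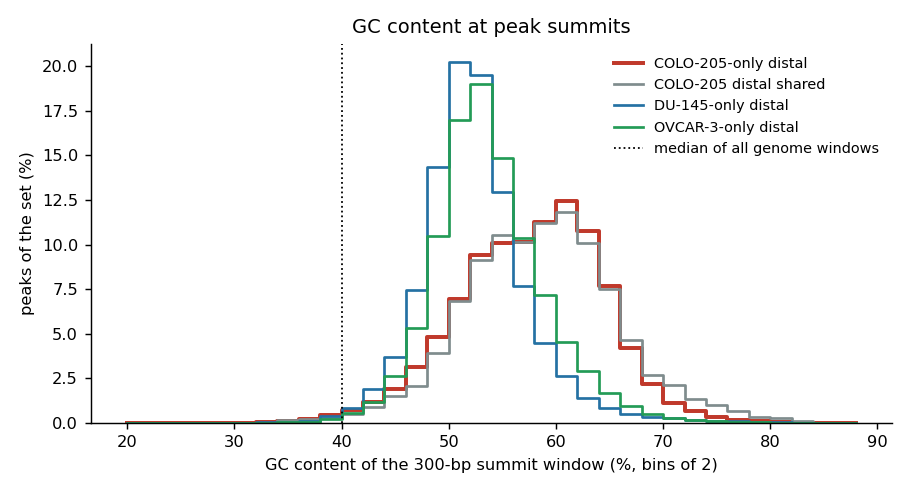
Distribution of the GC content of 300-bp summit windows (x axis, in bins of 2 percentage points) as the percentage of each set of distal peaks (y axis), with a line for COLO-205-only, COLO-205 shared, DU-145-only and OVCAR-3-only peaks. Both COLO-205 sets peak near 60% GC (medians 58.0% and 58.7%) and the sets of the other lines near 52% (medians 52.0% and 53.0%), all above the genome median of 40.0% (dotted).

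A window counted as holding a motif when it held the letters on either strand. The HNF4 letters CAAAGTCC were in 1.08% of the COLO-205-only distal peaks (0.99 to 1.18), 0.97% of shared, 1.23% of DU-145-only (1.12 to 1.35) and 1.20% of OVCAR-3-only distal peaks (1.09 to 1.32) and 1.13% of all genome windows. In windows of 600 bp the order turned, with COLO-205-only distal peaks 0.21 percentage points above DU-145-only and 0.17 above OVCAR-3-only distal peaks. No excess of HNF4 letters over the other lines was therefore seen that held across window sizes. The CDX letters TTTATNG were in 4.36% (4.18 to 4.55), below 6.64% in DU-145-only and 6.34% in OVCAR-3-only distal peaks, and 21.7% of genome windows. The TCF/LEF letters CTTTGAT were in 1.42% (1.31 to 1.53), below 1.90% and 1.92%, and 4.97% of genome windows. The letters AGATAA of GATA factors and TGTTTAC of FOXA factors were in 4.57% and 1.36%, compared with 7.26% and 1.74% in DU-145-only distal peaks and 21.1% and 4.64% of genome windows. Within windows of 45 to 55% GC, the shares of COLO-205-only distal peaks were also below those of DU-145-only and OVCAR-3-only distal peaks. There the HNF4 share was 0.76%, compared with 1.20% and 1.08%, the CDX share 5.97%, compared with 6.97% and 7.37%, and the TCF/LEF share 1.20%, compared with 1.83% and 1.79%. The GATA share was 6.22%, compared with 7.50% and 7.32%, and the FOXA share 1.19% (1.02 to 1.37), compared with 1.59% (1.44 to 1.76) and 1.67% (1.5 to 1.86). In windows of 55 to 65% GC, which hold 54.0% of the COLO-205-only distal peaks, the intervals overlapped for HNF4, at 1.34% (1.21 to 1.49), 1.45% (1.19 to 1.74) and 1.47% (1.25 to 1.71), and for CDX, at 3.55% (3.33 to 3.78), 3.74% (3.33 to 4.18) and 3.97% (3.61 to 4.35). In that class the GATA share was 3.89% (3.66 to 4.13), compared with 5.31% (4.82 to 5.83) and 4.74% (4.35 to 5.16). Above 65% GC the order was mixed, with 0.91% for HNF4 (0.69 to 1.19), compared with 0.31% (0.04 to 1.13) and 0.96%. For CDX and GATA the gap to the genome was smaller from 55 to 65% GC, where the genome windows held CDX letters in 4.00% and GATA letters in 4.83%. For HNF4 the genome share was 1.37% in that class but 1.43% from 45 to 55% GC, where the gap was wider than over all windows. The part of base composition in the differences over all windows was not tested.

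AP-1 letters (TGANTCA) were in 4.55% of the COLO-205-only distal peaks (4.37 to 4.74). They were in 5.85% of shared (5.43 to 6.29), 7.91% of DU-145-only (7.62 to 8.19) and 7.0% of OVCAR-3-only distal peaks (6.73 to 7.28), and 9.31% of all genome windows. The share was above that of DU-145-only distal peaks on 1 of 20 chromosomes and above that of OVCAR-3-only distal peaks on 1 of 20. Within windows of 45 to 55% GC it was 4.40% (4.08 to 4.75), compared with 7.94% (7.60 to 8.28) and 7.27% (6.92 to 7.64), and within 55 to 65% GC it was 5.09%, compared with 8.23% and 6.90%. Above 65% GC the intervals overlapped, at 2.52% (2.13 to 2.96), 4.23% (2.80 to 6.09) and 2.66% (1.73 to 3.90). The E-box CACGTG, bound by CLOCK and MYC among others, went the other way. It was in 6.30% (6.08 to 6.52) of the COLO-205-only distal peaks, compared with 5.70% in shared, 4.6% in DU-145-only and 5.11% in OVCAR-3-only distal peaks and 2.77% of genome windows. The share was above that of DU-145-only distal peaks on 20 of 20 chromosomes and above that of OVCAR-3-only on 17 of 20. In windows of 45 to 55% GC, however, it was in 4.13% (3.81 to 4.47), in 4.32% of DU-145-only, in 4.43% of OVCAR-3-only and in 4.23% of genome windows, so that no excess was seen there. From 55 to 65% GC it was 7.29% (6.98 to 7.61), compared with 6.48% of genome windows. In that class it was 6.62% (6.01 to 7.27) in shared, 5.53% (5.03 to 6.06) in DU-145-only and 6.30% (5.85 to 6.77) in OVCAR-3-only distal peaks. The PITX letters GGATTA were in 25.9%, compared with 42.1% in DU-145-only and 37.5% in OVCAR-3-only distal peaks and 20.2% of genome windows. However, GGATTA is part of the Alu repeat consensus. The longer Alu letters GGATTACA were in 21.5% of the COLO-205-only, 34.8% of DU-145-only and 30.9% of OVCAR-3-only distal peaks and 9.43% of genome windows.

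**Figure D4:**
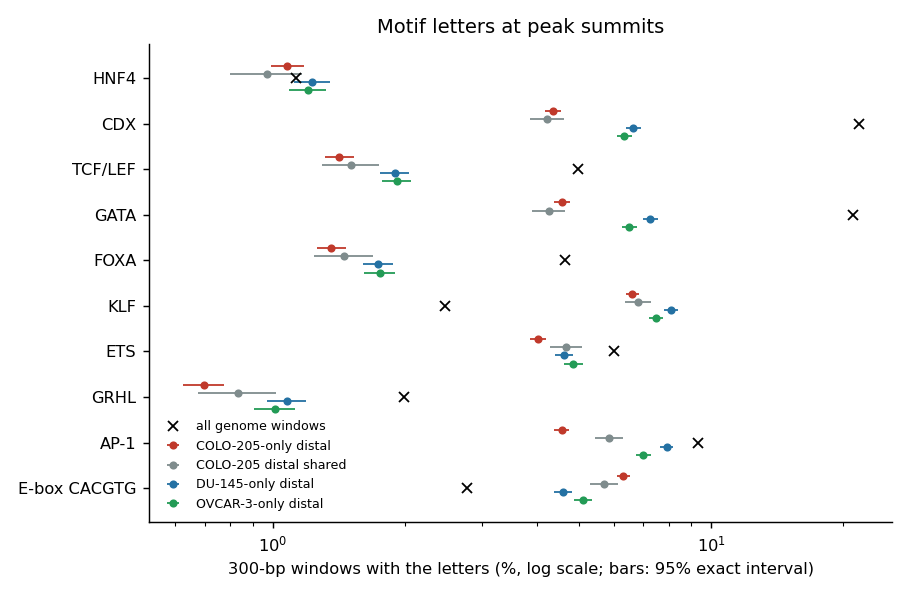
Percentage of 300-bp summit windows that hold the letters of each motif (x axis, log scale) for COLO-205-only, COLO-205 shared, DU-145-only and OVCAR-3-only distal peaks, with exact 95% intervals as bars and the share of all genome windows as crosses. AP-1 is lower in COLO-205-only (4.55%) than in DU-145-only (7.91%) and OVCAR-3-only peaks (7.0%), the E-box is higher, and the lineage motifs from HNF4 to FOXA are not above those of the other lines.

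Tandem copies of the 5-base unit CATTC, at least 3 in a row, were found at 305 COLO-205-only distal peaks (0.64%, 0.57 to 0.71), 36 shared COLO-205 distal peaks (0.31%, 0.22 to 0.43), 0 of 34914 DU-145-only and 1 of 33374 OVCAR-3-only distal peaks. CATTC repeats are a component of human satellite DNA. The 305 peaks lay mostly on chromosome 10 (111), chromosome 21 (70) and chromosome 4 (41), and their median background of 20.1 tags compared with 3.75 over all COLO-205-only distal peaks. Reads cannot be placed with certainty in such repeats. Among windows below 45% GC, the TEAD letters CATTCCA, which 2 copies of the unit in a row contain, were in 22.3% of the COLO-205-only (20.3 to 24.3), 16.9% of the shared COLO-205 (12.9 to 21.6) and 4.46% of the DU-145-only distal peaks.

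Each peak was assigned to the protein-coding gene with the nearest transcript start, at any distance, so that a count does not place the peaks close to the gene. Of 18523 genes, 9412 (50.8%) had at least 1 COLO-205-only distal peak and 1034 (5.58%) had 10 or more. The corresponding share with at least 1 was 40.9% for DU-145-only and 34.0% for OVCAR-3-only distal peaks, so that counts for gene lists below are read against these. The 15 genes with the most peaks included LRFN2 (243), SGK1 (241), EYS (231), TPTE (198), TAFA5 (192), ZFAND3 (169), PRDM16 (151), RBFOX3, ALDH8A1 (142), OLFM1 (142), BRD1 (136), IRX2 (133), HDAC4 (132) and RXRA (132). The strength of their peaks differed. LRFN2, which encodes a synaptic adhesion protein, SGK1, EYS, a photoreceptor matrix gene, ZFAND3 and ALDH8A1 lie on chromosome 6, and from 113 to 208 of their peaks had a −log10 q of at least 10. TPTE, a testis phosphatase-like gene beside the repeats of chromosome 21, had 115. Most of the others, among them the nuclear receptor RXRA, the histone deacetylase HDAC4 and the neuronal splicing regulator RBFOX3, had from 19 to 31 such peaks. DU-145 had at most 9 and OVCAR-3 at most 15 line-only distal peaks at any of these 15 genes.

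Of 26 intestinal transcription factors on the chromosomes kept, 20 had at least 1 COLO-205-only distal peak, where the share over all genes was 50.8%. For DU-145-only distal peaks it was 16 of 25 (all genes 40.9%) and for OVCAR-3-only 12 of 25 (34.0%), so that this list was above the background in all 3 lines and was not particular to COLO-205. With a −log10 q of at least 10 the count was 10 of 26, where the share over all genes was 19.2%. CDX2 and KLF5 lie on chromosome 13 and were not counted. The factors differed in how many peaks they had in each line. MYB had 72 COLO-205-only, 0 DU-145-only and 0 OVCAR-3-only distal peaks. FOXA2, a forkhead factor of gut endoderm, had 50, compared with 0 and 6, and its strongest had a −log10 q of 17.9. HNF4A, a nuclear receptor of gut and liver epithelium, had 12 and no DU-145-only or OVCAR-3-only distal peak, with its strongest at 14.1. SOX9, a factor of crypt progenitors, had 34 beside 17 DU-145-only and 23 OVCAR-3-only distal peaks, and KLF4, a factor of differentiated epithelium, had 18, compared with 21 and 4. The strongest COLO-205-only distal peaks of FOXA2, HNF4A, SOX9 and KLF4 lay 81134, 18850, 184128 and 588206 bp from a start. TCF7L2, the main TCF factor of intestine, had 8, compared with 22 and 19, and GATA6, a zinc finger factor of gut endoderm, had 2, compared with 41 and 0. Both the FOXA2 and the HNF4A gene lie on chromosome 20, where COLO-205-only distal peaks were densest, and MYB lies among the dense windows of chromosome 6.

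The other factors had few. ELF3 and GRHL2, regulators of epithelial genes, had 6 each, NR5A2 and CREB3L1 had 3 each, GATA4, ISX and SPDEF had 2 each, and HNF4G, FOXA3 and ONECUT2 had 1 each. CDX1, EHF, ATOH1, FOXA1, VDR and PPARG had none. In all, 6 of the 26 factors had 10 or more, among them MYB, FOXA2, SOX9, KLF4 and HNF4A, where 5.58% of all genes did. For DU-145-only distal peaks 4 of 25 factors had 10 or more, and for OVCAR-3-only 2 of 25. The share over all genes with 10 or more was not counted for those lines.

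WNT target and crypt genes had the highest share of the lists with more than 7 genes. Of 19, 16 had at least 1 COLO-205-only distal peak, where the share over all genes was 50.8%. The count was 7 of 19 for DU-145-only (all genes 40.9%) and 12 of 18 for OVCAR-3-only distal peaks (34.0%). The list was above the background in COLO-205 and in OVCAR-3, so that this was not particular to COLO-205. Of the 19 genes, 9 had 10 or more COLO-205-only distal peaks, where 5.58% of all genes did. For DU-145-only distal peaks 2 of 19 had 10 or more, and for OVCAR-3-only 1 of 18. TCF7, a TCF/LEF factor, had 31 beside 6 DU-145-only and 0 OVCAR-3-only distal peaks, and its strongest had a −log10 q of 22.6. AXIN2, a feedback inhibitor of WNT signalling, had 30, compared with 0 and 4, with a strongest peak of 25.4. EPHB3, a receptor of crypt cells, had 22, compared with 0 and 7. The 7 OVCAR-3 peaks at EPHB3 lie on chromosome 3, which is left out for OVCAR-3 in the list counts above. NKD1, another feedback inhibitor, had 16, compared with 2 and 0, and ASCL2, a factor of intestinal stem cells, had 15 and no DU-145-only or OVCAR-3-only distal peak, although 2 further COLO-205 distal peaks there overlapped another list. CCND1, EPHB2, SMOC2 and RGMB, named like MYC and LGR5 after their values were seen, had 14, 13, 13 and 10. DU-145-only distal peaks at these genes numbered 5, 4, 7 and 0, and OVCAR-3-only distal peaks 6, 4, 3 and 1. COLO-205 distal peaks that overlapped another list numbered 6 at TCF7, 3 at AXIN2, 10 at EPHB3, 1 at NKD1 and 5 at CCND1. MYC went the other way, with 1 COLO-205-only distal peak, 61 in DU-145 and 25 in OVCAR-3, although 8 further COLO-205 distal peaks at MYC overlapped another list. LGR5, the stem cell receptor, had 1, and CD44, NOTUM and APCDD1 had none. With a −log10 q of at least 10, 11 of the 19 genes had such a peak, where the share over all genes was 19.2%.

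**Figure D5:**
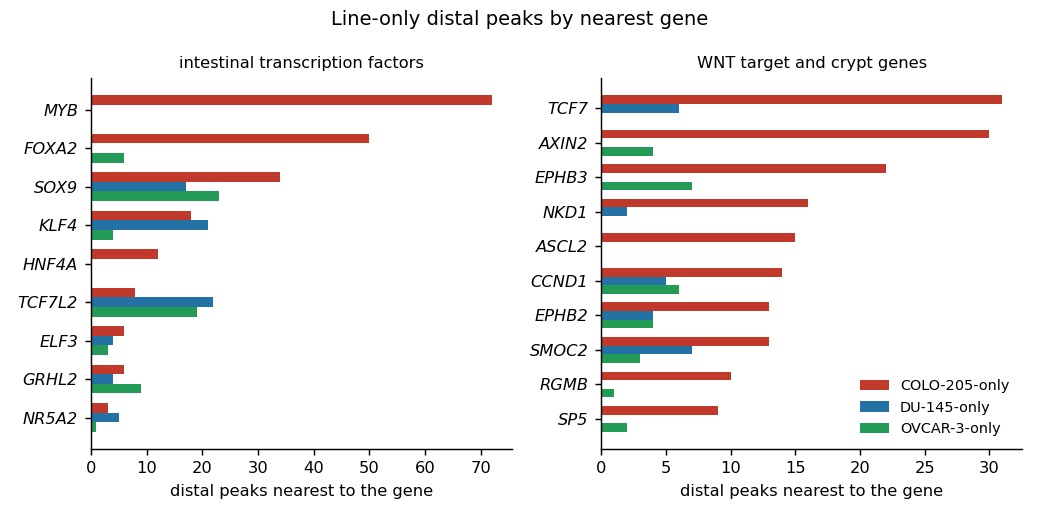
Number of line-only distal peaks whose nearest protein-coding transcript start belongs to the gene (x axis) for 9 of the 10 intestinal transcription factors (left) and the 10 WNT target and crypt genes (right) with the most COLO-205-only peaks, with bars for COLO-205, DU-145 and OVCAR-3. MYB (72), TCF7 (31) and AXIN2 (30) have far more in COLO-205, whereas TCF7L2 has more in DU-145 (22) and OVCAR-3 (19) than in COLO-205 (8). The OVCAR-3 bar of EPHB3 counts peaks on chromosome 3, which is left out of the OVCAR-3-only set elsewhere.

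Genes of differentiated colon epithelium were not more often assigned a peak than other genes. Of 30, 15 had at least 1 COLO-205-only distal peak (all genes 50.8%), compared with 16 of 30 for DU-145-only and 12 of 29 for OVCAR-3-only distal peaks. CDHR2, a brush border protocadherin, had the most with 12, the mucin gene MUC2 had 9, and the trefoil factor genes TFF3 and TFF1 and the adhesion gene EPCAM had 6 each. PHGR1, a gene of gastrointestinal epithelium named after its values were seen, had 4, all with a −log10 q over 10 and the strongest at 43.1, 3321 bp from its start, and no DU-145-only or OVCAR-3-only distal peak. KRT20, CDH17, CEACAM5, LGALS4, GUCY2C and 10 more had none, and 9 COLO-205 distal peaks at LGALS4 overlapped another list.

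The 7 genes that the study names as COLO-205 master regulators had a COLO-205-only distal peak in 6 cases, where the share over all genes was 50.8%. Its authors chose this list from data of the line, so it is not independent evidence. PITX1, a homeobox factor of hindlimb and epithelium, had 43 beside 11 DU-145-only and 1 OVCAR-3-only distal peaks, with a strongest −log10 q of 23.9. BCLAF1, on chromosome 6 beside MYB, had 42, and no distal peak was found in DU-145 or OVCAR-3 alone. HOXB13, a posterior homeobox factor of colon and prostate, had 10, ELF3 and TFF3 had 6 each and CLOCK had none. DU-145-only distal peaks were found at 6 of these 7 genes as well (all genes 40.9%), and OVCAR-3-only distal peaks at 2 (all genes 34.0%).

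Lists for other cell types also had COLO-205-only distal peaks, where the share over all genes was 50.8%. Neuronal genes had them at 11 of 15, led by RBFOX3, which is among the 15 genes with the most. Prostate genes had them at 8 of 11, led by the protease TMPRSS2 with 16 and SLC45A3 with 6, and ovarian and Mullerian genes at 12 of 18, led by the homeobox genes LHX1 with 19 and PAX2 with 14. Mesenchymal genes had them at 12 of 20, led by TWIST2 with 16, with SNAI2 and TGFBI at 5 each. Blood cell genes had them at 6 of 16, led by IKZF1 with 7 and ITGAM with 3. Of these lists, only the blood cell genes (37.5%) were below the share over all genes. A count of genes with at least 1 such peak therefore did not set the intestinal lists apart from the neuronal or prostate lists. Of all genes, 5.58% had 10 or more. Of the contrast lists, 3 of 18 ovarian, 1 of 11 prostate, 1 of 20 mesenchymal, 0 of 16 blood and 1 of 15 neuronal genes did. It was 6 of 26 intestinal factors, 1 of 30 colon epithelial genes and 9 of 19 WNT genes. PAX8, a lineage factor of ovarian cancer named after its values were seen, had 0 COLO-205-only and 63 OVCAR-3-only distal peaks.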

How the data were processed

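H3K27ac ChIP-seq was available as 1 peak list for each of 4 cell lines. Per the submitters' processing notes, reads were mapped with Bowtie2 2.1.0 and peaks called with MACS2 2.1.0.20150603 on hg19. The deposited lists give each peak an integer score, a fold enrichment at the summit, and −log10 p and −log10 q values, all made by the authors with MACS2, and every list ends at a q of 0.001. The merging of peaks less than 350 bp apart that the study's methods describe was not applied in the deposited lists.

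Pileup and background at the summit were computed from the deposited fold and −log10 p values as the whole number of tags that gives both within 0.001. Transcript starts and exons came from GENCODE release 44 on GRCh37, and sequence from the GRCh37 genome. DU-145-only and OVCAR-3-only distal peaks were found by the same rule, without chromosome 14 for DU-145 and chromosome 3 for OVCAR-3, where these lists are dense. Counts at single genes kept these chromosomes, so the OVCAR-3 count of EPHB3 comes from chromosome 3. Windows of 300 bp around the summit were searched for the letters of 18 motifs on both strands. Each peak was assigned to the nearest protein-coding transcript start and counted over 9 gene lists. No test was made, and no sample had a second library. Scripts ran in Python 3.11.15 with numpy 2.4.6, pandas 2.3.3, scipy 1.17.1 and matplotlib 3.10.9, and were tested on simulated data.

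The peaks, gene lists and motifs were chosen with earlier results of these data known. Named genes were the 15 with the most COLO-205-only distal peaks, every intestinal factor and master regulator, the 5 colon epithelial and 5 WNT genes with the most, and 2 from each contrast list, with the 10 strongest peaks and the 10 largest runs. Printed windows were chosen among the 6 intestinal factors with the most peaks. Windows touching an exon of a protein-coding gene were passed over, which was added to that rule later. The values off chromosome 6 and the CATTC repeat were chosen after values were seen. Some genes, a motif and some windows that these rules name are not reported here.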

Additional observations from a re-analysis of the deposited data

How the results depend on the processing

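No paired analysis was possible because each line has 1 library. The number of COLO-205-only distal peaks stayed between 41982 and 52753 under 9 alternatives. It was 11200 from a −log10 q of 10 and 4634 when every list was cut to the same number of peaks, both of which use fewer peaks by construction. Their share of distal peaks was 77.7% with the other lists widened by 350 bp, 82.9% when an overlap of at least 50% was required, 75.2% from a −log10 q of 10, 82.0% with lists of equal length and also beyond 5 kb from a start, and 81.6% with the starts of all genes. Without the SKOV-3, DU-145 or OVCAR-3 list it was 81.4%, 86.2% or 88.6%.

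The median −log10 q was 7.65 after merging peaks less than 350 bp apart and, in alternatives chosen after seeing the data, 7.53 without windows of over 100 peaks and 7.50 without chromosome 6. The HNF4 share was 0.658% in windows of 200 bp and 2.60% in windows of 600 bp, and the AP-1 share was 2.61% and 11.5%, as window length sets how many letters are searched. At 600 bp the HNF4 difference turned from −0.15 to 0.21 percentage points against DU-145-only and from −0.12 to 0.17 against OVCAR-3-only distal peaks, and the cause was not tested. The AP-1 share was 4.76% from a −log10 q of 10 and 4.35% without the dense windows, and its difference stayed below 0 under the 6 alternatives, from −7.66 to −2.02 against DU-145-only and from −5.00 to −1.48 against OVCAR-3-only distal peaks. Intestinal factors with a peak numbered 10 from a −log10 q of 10 (19.2% of all genes), 7 with lists of equal length (7.01%), 18 without chromosome 6 (52.1%) and 18 without the dense windows (45.6%). Under the last 3 of these, WNT genes numbered 8, 15 and 14.

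The limits are 1 library per line, lists that hold only peaks past a threshold, and lists of unequal length and depth. Input signal and DNA copy number were not analysed here.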
